A study of Mus musculus with 14 samples.

Results

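The miR-130 and miR-301 family was described across heart transplants in mice. It consists of 4 assays, mmu-miR-130a, mmu-miR-130b, mmu-miR-301a and mmu-miR-301b (mmu for mouse, left out below), of the 375 microRNA assays on a TaqMan rodent array card, a plate of small real-time PCR reactions with 1 small RNA assayed per well. The members were chosen by assay name, from a family put forward with results of these data in view, the level of miR-130b in graft-infiltrating lymphocytes in particular. What the lymphocyte arrays show of the 4 members is therefore given as a description with no test, and no p-value below is adjusted for the choice of the family.

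There were 14 arrays, with 7 of whole hearts and 7 of lymphocytes, from C57BL/6 and BALB/c mice that were 8 to 10 weeks old. Allogeneic grafts were BALB/c hearts placed heterotopically in C57BL/6 recipients, labelled as rejecting. Syngeneic grafts went from C57BL/6 donors to recipients of that strain and were labelled as not rejecting. Heart grafts were taken on day 7 (3 allogeneic and 3 syngeneic arrays) and graft-infiltrating lymphocytes (GIL) on day 5 (3 and 3). Each table also had 1 array of untransplanted animals, BALB/c hearts for the grafts and C57BL/6 blood mononuclear cells (PBMC) for the lymphocytes. Every array held pooled RNA of 3 animals, so the spread between arrays is that between pools. Donor strain differs with the group, since the syngeneic hearts were C57BL/6 and the allogeneic and normal hearts BALB/c; strain and rejection cannot be told apart between the graft groups.

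MicroRNAs guide Argonaute proteins to messenger RNAs, mainly through the seed, the bases near the 5′ end that pair with the target, and reduce translation and stability of those messages. MicroRNAs of 1 seed family can therefore share many targets, although the copies are made from different loci. Members of this family have been studied in vascular and fat cells, where the transcription factor PPARG is a known target, and miR-301a has been studied in T helper cell differentiation in mice. The mature 3p sequences below are shown because they carry the shared seed, bases 2 to 8, which is in capitals; they are from RefSeq on GRCm38.p6.
mmu-miR-130a-3p: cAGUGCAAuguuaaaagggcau
mmu-miR-130b-3p: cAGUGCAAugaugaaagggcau
mmu-miR-301a-3p: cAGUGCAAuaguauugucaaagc

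Counted from the 5′ end, miR-130a-3p and miR-130b-3p differed at 2 of 22 positions, both between positions 11 and 13. miR-130a-3p and miR-301a-3p differed at 10 of the first 22 positions, and miR-130b-3p and miR-301a-3p at 11 of 22, in both cases from position 10 on. miR-301b is reported by name only. RefSeq listed 7 mouse mature microRNAs with this seed. Of the 335 assays with mouse names, 280 matched a RefSeq mature sequence by name, and 0 of those outside the family held it, so no other matched assay on the card reads the same seed.

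The 4 members come from 3 places in the genome (GRCm38.p6). The mature miR-130a lies at chr2:84741116-84741137 on the minus strand, in a precursor that overlaps no annotated gene, with the nearest protein-coding gene, Ypel4, 2460 bases away. The mature miR-301a lies at chr11:87113054-87113076 on the plus strand, within the gene Ska2. The mature miR-130b lies at chr16:17124071-17124092 on the minus strand, within the gene 2610318N02Rik. The precursor of miR-301b lies in the same gene, 257 bases from that of miR-130b.

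Each assay gives a threshold cycle (Ct), the PCR cycle at which its signal crosses a set line, so that more of the microRNA gives a lower Ct, by 1 cycle for each doubling at full PCR efficiency. Each level used below is minus the Ct after subtraction of a reference, the mean Ct of those microRNA assays that every array of the table detected, 210 for hearts and 137 for lymphocytes. An assay counted as detected below Ct 35. All 4 members were detected on all 14 arrays. The reference Ct was 22.4 to 23.9 for hearts, where 228 to 260 assays were detected, and 23.2 to 27.95 for lymphocytes, where 161 to 221 were. Allogeneic GIL pool 3 stood apart with 161 detected assays and the latest reference Ct, and GIL values are therefore also given without it.

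miR-130b was the member that rose in rejecting hearts. Its Ct was 23.2, 23.0 and 24.0 in the allogeneic grafts, 24.1, 24.9 and 25.3 in the syngeneic grafts and 26.6 in the normal hearts. After scaling its level was -0.06, 0.12 and -0.50 in the allogeneic grafts, -1.73, -1.53 and -1.57 in the syngeneic grafts and -2.76 in the normal hearts. Every allogeneic pool lay above every syngeneic pool, and both graft groups lay above the normal hearts. Between allogeneic and syngeneic grafts miR-130b rose by 1.47 ± 0.24 (log2 fold change ± SE, n = 3 and 3; limma, Benjamini-Hochberg adjusted p = 0.00622). It ranked as rise 28 of the 238 assays tested.

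The other 3 members gave no called difference between the graft groups. The level of miR-130a was 0.84, 1.35 and 0.54 in the allogeneic and 1.02, 0.56 and 0.82 in the syngeneic grafts, a log2 fold change of 0.11 ± 0.28 (limma adjusted p = 0.778). That of miR-301a was 1.61, 1.10 and 1.03 against 0.98, 1.04 and 0.82, with a log2 fold change of 0.30 ± 0.24 (limma adjusted p = 0.367). That of miR-301b was 1.42, 0.79 and 1.03 against 0.79, 1.09 and 0.92, with a log2 fold change of 0.15 ± 0.25 (limma adjusted p = 0.652). On this scale the values of the graft groups overlapped for each of these 3, and the sign of the miR-130a and miR-301b differences changed with the scaling. In all, 1 of 4 members was called, against 32.4% of the assays tested (41 higher and 36 lower). Values of the graft groups did not overlap for 1 of 4 members and for 54.2% of the assays. The median log2 fold change was 0.22 over the members and 0.02 over all assays tested.

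Run day differed between heart arrays, and 2 days held an array of each graft group. On those days the allogeneic pool exceeded the syngeneic pool in miR-130b by 1.67 and 1.03. The same differences were -0.17 and -0.03 for miR-130a, 0.63 and -0.01 for miR-301a, and 0.63 and -0.05 for miR-301b. With run day as a fixed block, which rests on those 2 days, the miR-130b difference was 1.35 (adjusted p = 0.0871), and 2 of all assays were called. Scaled to the small nuclear RNA MammU6 it was 1.35 (adjusted p = 0.123).

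**Figure D1:**
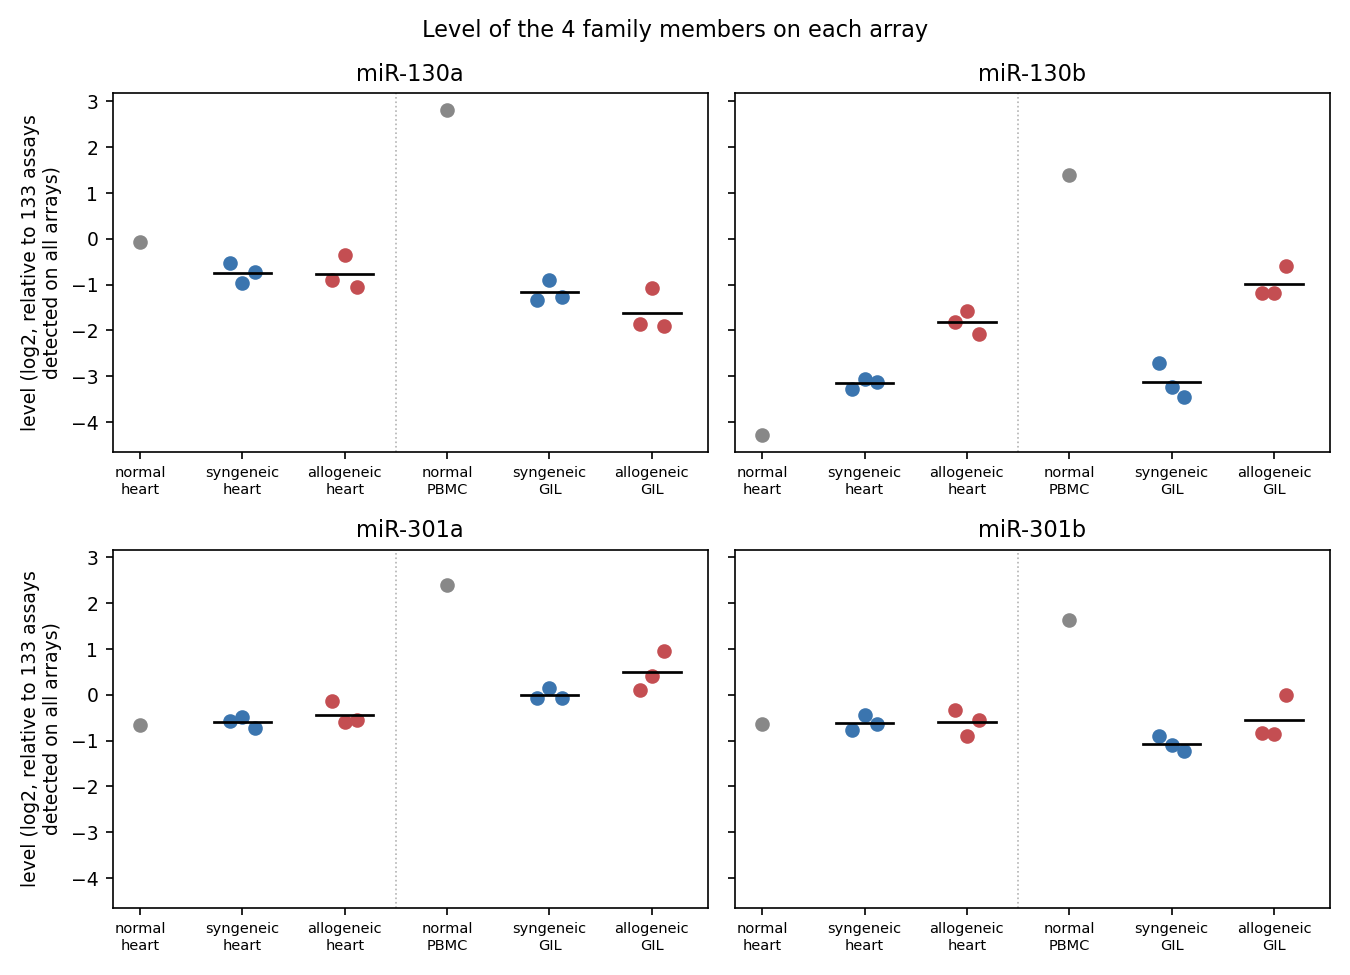
Level of each member on each array (y axis, log2, relative to the 133 microRNA assays detected on all 14 arrays), by group (x axis), with 1 point per array of 3 pooled animals and a line at the mean of 3 arrays. The dotted line separates the heart from the lymphocyte table; miR-130b is separated between allogeneic and syngeneic arrays in both, and the PBMC array is the highest point in every panel.

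Both graft groups were also set against the single normal heart array, which is assumed in the fit to vary like the other groups. These contrasts share arrays with the one above and with each other. In allogeneic grafts miR-130b was higher than in normal hearts by 2.61 ± 0.34 (log2 fold change ± SE; limma adjusted p = 0.00133). In syngeneic grafts the difference was 1.15 ± 0.34 and missed the threshold (limma adjusted p = 0.0582). Over 14 alternatives that difference was 0.62 to 1.58 with adjusted p of 0.0258 to 0.294. It passed in 2 of them, with snoRNA202 as the scale (adjusted p = 0.0258) and with the assays detected on all 14 arrays as the reference (adjusted p = 0.0467), and quantile normalization gave the lowest value, 0.62 (adjusted p = 0.294). For miR-130a the log2 fold changes against normal hearts were -0.55 ± 0.40 in allogeneic and -0.66 ± 0.40 in syngeneic grafts, with adjusted p of 0.264 and 0.262 from limma. miR-301a differed from normal hearts by 0.36 ± 0.34 and 0.06 ± 0.34, and miR-301b by 0.18 ± 0.35 and 0.03 ± 0.35, none of them called. Thus 1 of 4 members was called against normal hearts in allogeneic grafts, beside 51.9% of the assays tested. In syngeneic grafts 0 of 4 were called by limma, beside 19.0%. At an unadjusted limma p under 0.05 the count in syngeneic grafts was 1, miR-130b, beside 97 of the 242 assays tested.

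Markers of other cells moved in the same heart arrays. Of all assays tested between the graft groups, 32.4% were called in either direction (41 higher and 36 lower). The marker lists were chosen with earlier results of these data known. Leukocyte microRNAs (miR-142-3p, miR-142-5p, miR-150, miR-223 and miR-342-3p) were called higher in allogeneic grafts in 3 of 5 cases and called lower in 0. The log2 fold changes of these leukocyte microRNAs ran from -0.49 to 1.64. Their summed level (log2, undetected assays counted as 0) was 7.90 to 8.39 in allogeneic grafts, 7.16 to 7.63 in syngeneic grafts and 6.75 in normal hearts, the same order of groups as for miR-130b. Of the 8 microRNAs listed for proliferating cells, from the miR-17 and miR-106b clusters and their relatives, 3 were called higher and 0 lower. Their log2 fold changes were 0.43 to 1.41, and their summed level was 6.52 to 6.96, 6.01 to 6.13 and 5.58, also the order of groups of miR-130b. Cardiac muscle microRNAs (miR-1, miR-133a, miR-133b, miR-208, miR-208b and miR-499) were called lower in 5 of 6 cases. Their log2 fold changes were all negative, -2.29 to -0.74, with summed levels of 9.13 to 9.47, 10.5 to 11.3 and 12.2. Both endothelial markers and 3 of 4 tested fibroblast and smooth muscle markers were also called lower. Of the 2 erythroid markers, miR-451 and miR-486, 1 was called higher and 0 lower, with log2 fold changes of -0.16 and 3.99. Their summed level was 3.58 to 4.83 in allogeneic grafts, -0.74 to 1.66 in syngeneic grafts and 3.01 in normal hearts. The part of these cell types in the miR-130b difference was not tested. In whole tissue, fewer cells of a type and less RNA per cell cannot be told apart.

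In GIL, miR-130b had the largest difference of the 4 members. Its level there was in view when the family was put forward, so this lead is only a description. Its Ct was 25.3, 26.2 and 28.5 in allogeneic GIL, 27.4, 29.0 and 28.4 in syngeneic GIL and 21.7 in PBMC. After scaling, its level was -1.18, -1.16 and -0.58 in allogeneic GIL, -2.67, -3.21 and -3.40 in syngeneic GIL and 1.43 in PBMC. The latest allogeneic Ct belongs to pool 3, whose reference was also the latest, and after scaling that pool is the highest of the 3. The groups did not overlap, and the log2 fold change was 2.12 ± 0.31, or 1.93 ± 0.30 without allogeneic pool 3.

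miR-301a and miR-301b had smaller differences in GIL. The level of miR-301a was 0.13, 0.43 and 0.99 in allogeneic GIL, -0.02, 0.17 and -0.03 in syngeneic GIL and 2.44 in PBMC. Its log2 fold change was 0.48 ± 0.29, with groups that overlapped on this scale, and 0.24 ± 0.23 without allogeneic pool 3. The level of miR-301b was -0.81, -0.82 and 0.03 in allogeneic GIL, -0.85, -1.07 and -1.18 in syngeneic GIL and 1.67 in PBMC. Its log2 fold change was 0.50 ± 0.31, and 0.22 ± 0.23 without allogeneic pool 3; the groups did not overlap, but the highest syngeneic pool lay just below the lowest allogeneic pools.

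The level of miR-130a was -1.84, -1.05 and -1.89 in allogeneic GIL, -1.30, -0.86 and -1.22 in syngeneic GIL and 2.85 in PBMC, with overlapping groups. Its log2 fold change of -0.46 ± 0.32 (-0.32 ± 0.34 without allogeneic pool 3) turned positive under 4 other scalings, at 0.35 with MammU6, 0.43 with snoRNA202, 0.19 with snoRNA135 and snoRNA202, and 0.09 with quantile normalization. In the same comparison 36.3% of the 201 assays tested were called, and values did not overlap for 57.7% of them and for 2 of 4 members. Since the lymphocyte results put the family forward, nothing is read from that count. The median log2 fold change was 0.49 over the members and -0.24 over all assays tested. No run day of the lymphocyte table held both graft groups, so run day and group cannot be told apart there.

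**Figure D2:**
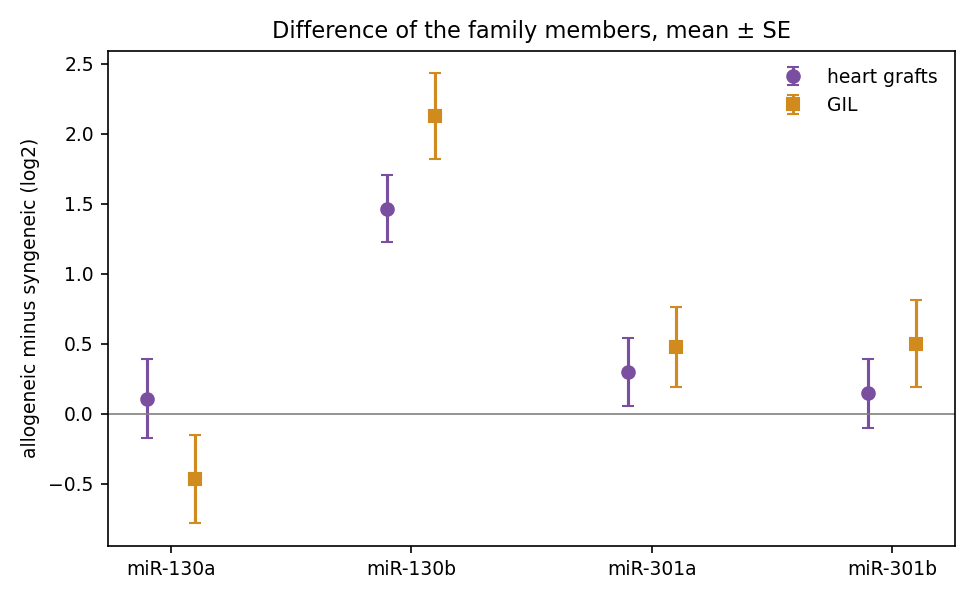
Log2 difference between allogeneic and syngeneic arrays for each member (y axis, mean ± SE from the fit, 3 against 3 arrays) in heart grafts (circles) and GIL (squares). miR-130b stands at 1.47 in hearts and 2.12 in GIL, while the other members lie between -0.46 and 0.50.

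The scale moved the GIL values of all assays together. The median log2 fold change of all assays tested was -0.24 with the mean reference, 0.58 with MammU6 and 0.65 with snoRNA202, and the split of called assays went from 25 higher and 48 lower to 34 and 20 with MammU6 and 38 and 10 with snoRNA202. In hearts the median went from 0.02 to -0.24 with the median of the reference assays, and the split from 41 higher and 36 lower to 24 and 56. Every scaling but quantile normalization shifts all assays of an array by the same amount. Such a scaling cannot change a difference taken relative to the median of all assays. On that relative scale miR-130b was higher in allogeneic GIL by 2.36, and by 2.83 with quantile normalization. In allogeneic hearts it was higher by 1.44, and by 1.26 with quantile normalization. In the same order, miR-301a lay at 0.72 and 0.80 in GIL, miR-301b at 0.74 and 1.01, and miR-130a at -0.22 and 0.03. In hearts miR-301a lay at 0.28 and 0.14, miR-301b at 0.13 and -0.05 and miR-130a at 0.09 and -0.15.

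**Figure D3:**
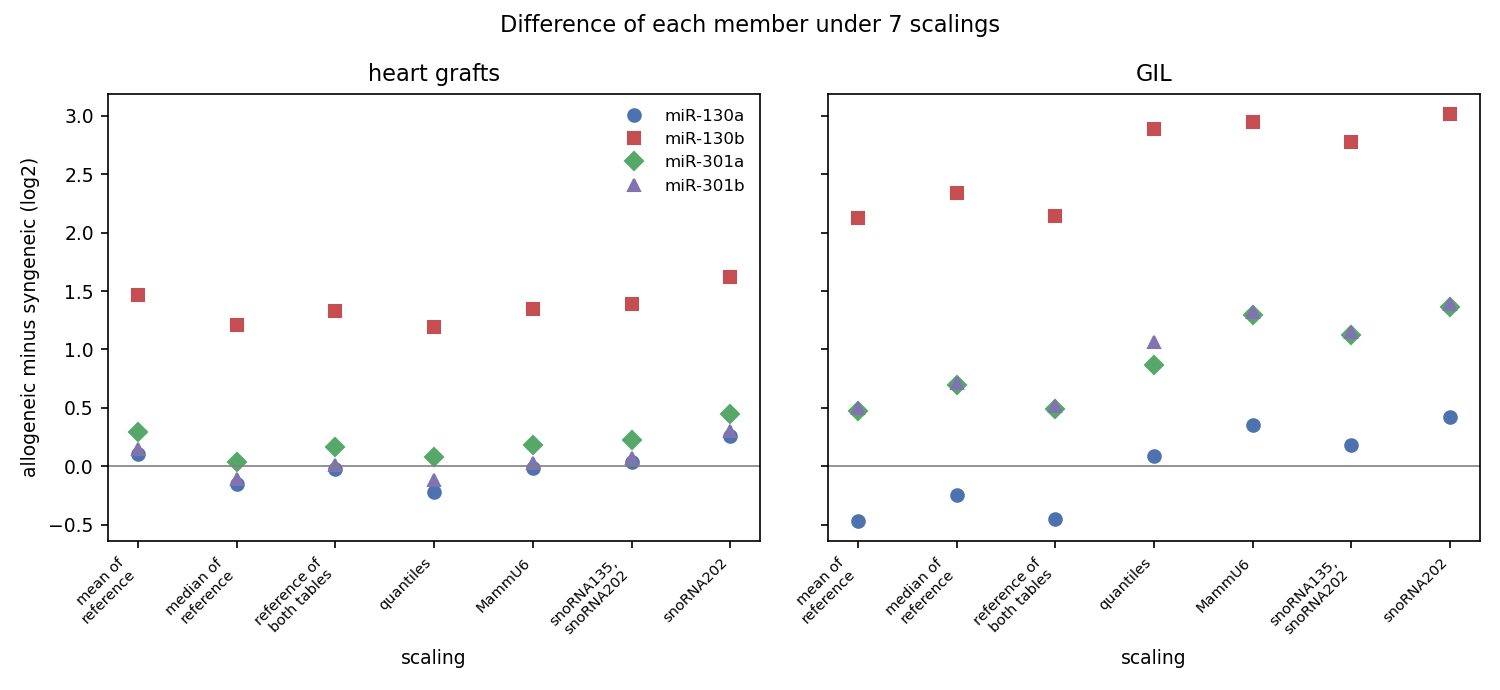
Log2 difference between allogeneic and syngeneic arrays (y axis) of each member under 7 scalings (x axis), in heart grafts (left) and GIL (right), with 1 point per member and scaling. miR-130b is the highest of the 4 under each of the 7 scalings in both tables, from 1.19 to 1.62 in hearts and from 2.12 to 3.01 in GIL. All scalings but quantile normalization move the 4 members of a table together, so only quantile normalization could change their order.

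The difference in level between 2 members on the same array needs no reference, so its change between groups does not depend on the scale. The size of such a difference within an array also holds the efficiency of the assays and is not read as relative abundance. In hearts miR-130b minus miR-130a lay between -2.75 and -2.10 in syngeneic grafts and between -1.22 and -0.90 in allogeneic grafts, a change of 1.36. miR-130b minus miR-301a changed by 1.17, from between -2.71 and -2.39 to between -1.67 and -0.98. miR-130b minus miR-301b, the pair from 1 host gene, changed by 1.32, from between -2.62 and -2.49 to between -1.53 and -0.67. None of these 3 pairs overlapped between the graft groups, and each had an exact two-sided permutation p of 0.1, the smallest that 3 against 3 arrays allow (0.2 after adjustment over 6 pairs). All 3 pairs hold miR-130b, here and in GIL below, so they are not 3 separate results. The 3 pairs without miR-130b overlapped in hearts and changed by 0.04 to 0.19, with exact permutation p of 0.2 to 0.9.

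In GIL the same differences, as a description, changed by 2.59 for miR-130b minus miR-130a, 1.65 for miR-130b minus miR-301a and 1.62 for miR-130b minus miR-301b, each without overlap. miR-301a minus miR-301b overlapped between the groups, from 0.83 to 1.24 in syngeneic GIL and from 0.94 to 1.26 in allogeneic GIL. miR-301a minus miR-130a changed by 0.94 without overlap, and miR-301b minus miR-130a by 0.96 with overlap. In the normal PBMC array miR-130b minus miR-301b was -0.23 and miR-130b minus miR-301a was -1.01, each above every GIL array of either group. miR-130b minus miR-130a was -1.42 in PBMC, below every allogeneic GIL array and below syngeneic pool 1 (-1.37).

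**Figure D4:**
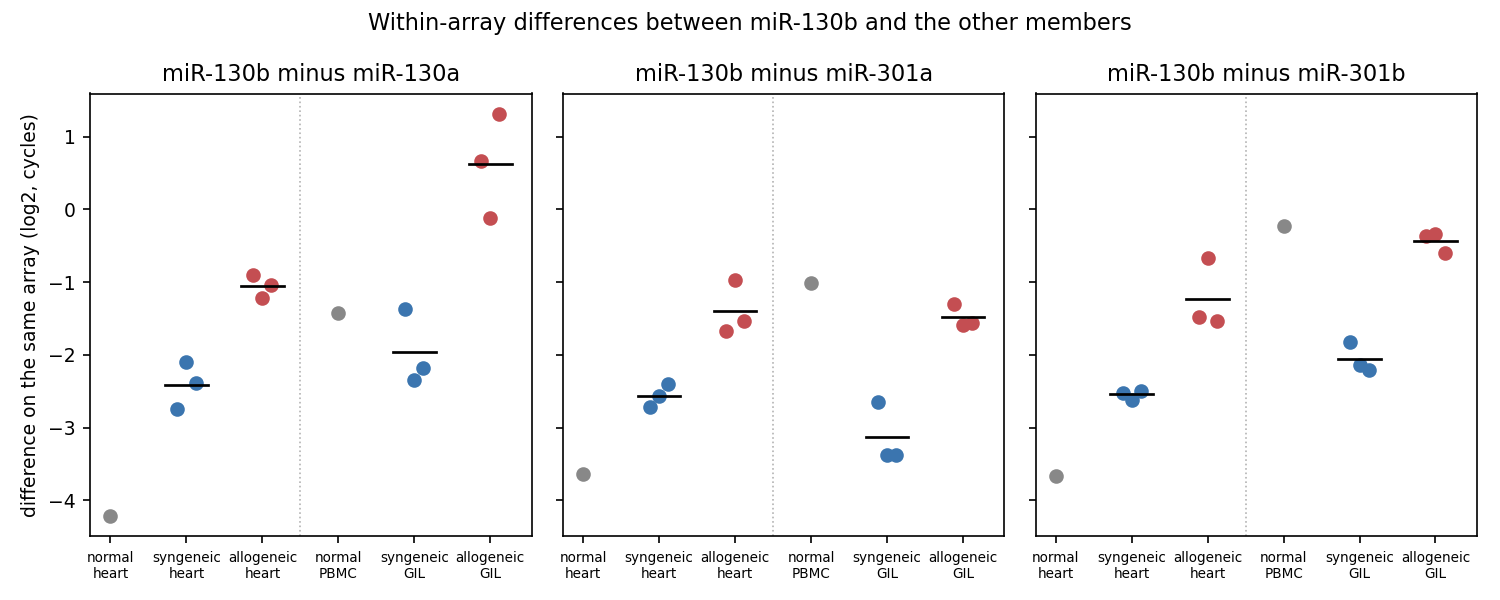
Difference in level between miR-130b and each other member on the same array (y axis, log2 units or cycles), by group (x axis), with 1 point per array and a line at the mean of 3 arrays. In all 3 panels the allogeneic arrays lie above the syngeneic arrays, in hearts and in GIL.

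All 4 members were at lower levels in GIL than in PBMC, described here with no test. Against the single PBMC array, syngeneic GIL differed by -3.98 ± 0.46 for miR-130a, -4.53 ± 0.45 for miR-130b, -2.40 ± 0.42 for miR-301a and -2.70 ± 0.45 for miR-301b (log2 fold change ± SE). In allogeneic GIL the differences were -4.45 ± 0.45, -2.40 ± 0.44, -1.93 ± 0.41 and -2.20 ± 0.44 in the same order of members. Each of these 8 values kept its sign in the alternatives tried, although with snoRNA202 the allogeneic differences shrank to -3.09, -1.04, -0.57 and -0.84. The median of all assays tested in these contrasts was -0.77 for syngeneic and -1.19 for allogeneic GIL, so most assays were also lower than in PBMC.

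The GIL arrays carried microRNAs of heart tissue beside those of lymphocytes. The summed level of the 6 cardiac muscle microRNAs was -3.69 in PBMC, 3.78 to 4.47 in syngeneic GIL and 5.18 to 6.45 in allogeneic GIL, and in PBMC 4 of the 6 were undetected. Only miR-208b was undetected in every GIL array. Of the 3 cardiac muscle microRNAs tested between the GIL groups, 2 were called higher in allogeneic GIL and 0 lower. Calls on the endothelial and the fibroblast and smooth muscle lists were all lower in allogeneic GIL, for 1 of 2 and 3 of 5 markers. The summed endothelial level was 0.28 in PBMC, 5.79 to 6.42 in syngeneic GIL and 4.55 to 5.32 in allogeneic GIL. For fibroblast and smooth muscle markers it was -2.21, 5.60 to 6.61 and 5.30 to 6.01, with overlap between the GIL groups. The leukocyte markers were detected in GIL, with summed levels of 8.57 in PBMC, 5.35 to 6.18 in syngeneic GIL and 5.97 to 6.55 in allogeneic GIL. Of these leukocyte markers 1 of 5 was called higher in allogeneic GIL and 0 lower, with log2 fold changes of -0.83 to 1.60. Of the microRNAs listed for proliferating cells, 6 of 8 were called higher, beside 36.3% of all assays tested called in either direction (25 higher and 48 lower). The marker lists were chosen with earlier results of these data known, so nothing is read from that count. The summed levels of the list for proliferating cells were 7.52 in PBMC, 4.78 to 5.23 in syngeneic GIL and 5.49 to 6.07 in allogeneic GIL. Like the leukocyte list it was thus highest in PBMC, and proliferation itself was not measured. The part of these cells in the GIL values of the family was not tested.

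On the reference of 133 assays detected on all 14 arrays, each member can be followed through all 6 groups, although both tables were run separately and no test was made across them. miR-130b was highest in PBMC (1.40), then in allogeneic GIL (-0.99 ± 0.34, SD, n = 3) and allogeneic hearts (-1.82 ± 0.25, SD, n = 3). Syngeneic GIL (-3.13 ± 0.38) and syngeneic hearts (-3.15 ± 0.11) followed and overlapped, and normal hearts were lowest (-4.29). Apart from that overlapping pair, neighbours in this order were separated.

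miR-130a fell in a different order, from PBMC (2.82) to normal hearts (-0.08), syngeneic hearts (-0.74 ± 0.21), allogeneic hearts (-0.77 ± 0.37), syngeneic GIL (-1.17 ± 0.24) and allogeneic GIL (-1.61 ± 0.47). From syngeneic hearts downwards each group overlapped the next. miR-301a was at 2.41 in PBMC, 0.50 ± 0.43 in allogeneic and 0.00 ± 0.12 in syngeneic GIL, which overlapped, and at -0.43 ± 0.26, -0.59 ± 0.13 and -0.65 in allogeneic, syngeneic and normal hearts. The syngeneic hearts overlapped the allogeneic and the normal hearts, while the normal hearts lay below every allogeneic heart. miR-301b was at 1.63 in PBMC and between -0.63 and -0.55 in allogeneic GIL and the 3 heart groups, which overlapped, with syngeneic GIL lowest at -1.07 ± 0.17.

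The authors' deposited relative quantities, ratios to the normal array on the snoRNA202 scale, put miR-130b at 7.82, 9.06 and 11.1 in allogeneic and 2.98, 3.01 and 3.02 in syngeneic hearts, from lowest to highest. In the authors' deposited table it was 0.350, 0.496 and 0.663 of the PBMC value in allogeneic GIL and 0.051, 0.057 and 0.076 in syngeneic GIL. miR-301a did not overlap between the groups in the authors' deposited table, at 1.27 to 1.58 in syngeneic and 1.74 to 2.10 in allogeneic hearts, and at 0.236 to 0.292 in syngeneic and 0.429 to 0.991 in allogeneic GIL. Its heart difference refitted on the snoRNA202 scale was 0.45 ± 0.24 (limma adjusted p = 0.211). miR-301b in the authors' deposited table overlapped in hearts, with 1.34 to 1.44 in the syngeneic and 1.39 to 2.07 in the allogeneic grafts, and did not in GIL, with 0.190 to 0.227 and 0.384 to 0.712. miR-130a in the authors' deposited table overlapped in both, with 0.685 to 1.09 and 0.786 to 1.39 in syngeneic and allogeneic hearts and 0.073 to 0.096 and 0.074 to 0.268 in GIL.

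Members were compared with each other and with all assays detected throughout a table by the Pearson correlation of their levels over its 7 arrays, as a description. The arrays share their groups, reference and, in part, run day. miR-301a and miR-301b, from different chromosomes, were the closest pair of the family, with r = 0.81 in hearts and 0.99 in GIL and PBMC. In likeness to miR-301a, miR-301b ranked 7 among 209 other assays in hearts and 1 among 136 in the lymphocyte table. miR-130b and miR-301b, from 1 host gene, had r = 0.36 in hearts and 0.90 in GIL and PBMC. In likeness to miR-130b, miR-301b ranked 85 among 209 other assays in hearts and 24 among 136 in the lymphocyte table. miR-130a was unlike the others in hearts, with r of -0.24, -0.16 and -0.49 to miR-130b, miR-301a and miR-301b. In the lymphocyte table the PBMC array is high for all 4 members and enters every correlation.

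The assays most like miR-130b in hearts were miR-182 (r = 0.99), miR-467a (r = 0.99) and miR-7a (r = 0.97). In the lymphocyte table they were miR-142-3p, miR-106b and miR-20b, each at r = 0.99, of which the first is on the leukocyte list and the others are on the list for proliferating cells. The assays most like miR-130a were miR-27b, miR-320 and miR-29b in hearts (r = 0.83 to 0.92) and miR-26a, let-7i and miR-328 in lymphocytes (r = 0.97 to 0.99). For miR-301a they were miR-340-3p, miR-674 and miR-20a in hearts (r = 0.87 to 0.88) and miR-301b, miR-26b and miR-101a in lymphocytes (r = 0.98 to 0.99). For miR-301b they were miR-339-3p, its rat-named assay and miR-301a in hearts (r = 0.81 to 0.90) and miR-301a, miR-15b and let-7g in lymphocytes (r = 0.98 to 0.99).

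A further 6 assays matched a mature microRNA whose bases 2 to 8 share a run of 6 bases with the family seed, shifted by 1 position. They are miR-148a, miR-148b and miR-152, miR-19a and miR-19b, and miR-350, whose assay name does not give an arm and matched through the 5p arm. The sequences of 2 of them are shown for comparison with those of the family, again with bases 2 to 8 in capitals.
mmu-miR-148a-3p: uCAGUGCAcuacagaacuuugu
mmu-miR-19a-3p: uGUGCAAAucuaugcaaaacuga

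In allogeneic against syngeneic hearts 1 of these 6 was called higher, miR-350 (1.01 ± 0.23, limma adjusted p = 0.0201), and 0 lower, beside 32.4% of all assays tested called in either direction. The median log2 fold change over the 6 was 0.66. miR-19a, a member of the miR-17 to miR-92 cluster, stood at 0.79 ± 0.26 (limma adjusted p = 0.057) and miR-148a at -0.38 ± 0.30 (limma adjusted p = 0.353). In GIL miR-19a was called higher (0.94 ± 0.28, limma adjusted p = 0.0478) and miR-152 lower (-1.07 ± 0.29, limma adjusted p = 0.0365), beside 36.3% of all assays tested, with a median of 0.42 over the 6. Neither count of the 6 is above the share of all assays.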

How the data were processed

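TaqMan rodent microRNA cards (384 wells, 381 detectors) were measured on 14 arrays, each of RNA from 3 animals pooled at 100 ng, isolated with mirVana, reverse transcribed and preamplified with Megaplex primers, per the labels' protocols. The deposited Ct is given by the authors as exported; baseline and threshold settings are not given in the sources used here. The deposited delta Ct, on an inverted log2 scale, equals Ct minus that of snoRNA202 (undetermined at 40) to within 5e-04 over the microRNA assays. Relative quantities were deposited as a ratio to the table's normal array. The well of let-7b in allogeneic heart pool 2 carried a deviating array name and was left out.

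Levels were recomputed from Ct, with undetermined wells or Ct of 35 or later set to 35. Every array table was fitted with limma 3.58.1 in R 4.3.3 (3 groups, two-sided). Calls used a threshold of 0.05 on the p-value adjusted by Benjamini and Hochberg across all assays tested, those detected on every array of at least 1 group compared. The fit was tested on simulated data. The summed level of a marker list is the log2 of the summed linear levels. Arrays give no counts, so their number limits the precision. The labels do not say whether pools shared a surgery or preparation, so p-values measure only the spread between pools.

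Members and marker lists were chosen with earlier results of these data known. Named assays are the 4 members, the assays with a related seed, the 3 assays most correlated with each member in each table, listed markers and the controls. Replicate numbers were checked for pairing: deviations of same-numbered arrays correlated at -0.13 to 0.06, so the numbers were not used as pairs. Alternatives were other scalings, detection limits, filters, run day, a replicate block and leaving out arrays.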

Additional observations from a re-analysis of the deposited data

How the results depend on the processing

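The miR-130b difference in hearts stayed positive in 21 of 21 alternatives (1.19 to 1.64) and below an adjusted p of 0.05 in limma in 19, missing with MammU6 (1.35, adjusted p = 0.123) and the fixed block for run day (1.35, adjusted p = 0.0871); the range of adjusted p was 0.0014 to 0.123. With a replicate block it was 1.47 (limma adjusted p = 0.0335), and that block changed no other call of a member. The replicate block and leaving out the normal array could not move this estimate. The same holds for testing with no filter or only where both groups were detected, and for leaving out software-marked wells. Without the normal array the SE and adjusted p were also unchanged. In syngeneic against normal hearts miR-130b passed in 2 of 14 alternatives, snoRNA202 (1.58) and the reference of both tables (1.14), and ranged from 0.62 with quantile normalization (adjusted p = 0.294) to 1.58; with MammU6 the adjusted p was 0.266 and with no filter 0.131. Uncalled differences near 0 changed sign. Between the heart graft groups miR-130a was -0.0087 with MammU6, -0.15 with the median reference, -0.21 with quantile normalization, -0.025 with the reference of both tables, -0.10 with run day as a fixed block, and -0.11 to 0.30 with 1 array left out; miR-301b was -0.11 with the median reference, -0.12 with quantiles and -0.021 to 0.29 with 1 array left out. Against normal hearts the syngeneic differences with snoRNA135 and snoRNA202 were -0.00017 for miR-301a and -0.034 for miR-301b, the latter -0.047 to 0.10 with 1 array left out; the allogeneic ones were 0.044 for miR-130a with snoRNA202 and -0.027 for miR-301b with the median reference.

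In GIL, with MammU6, snoRNA202, snoRNA135 and snoRNA202, and quantiles in that order, miR-130a was 0.35, 0.43, 0.19 and 0.092, miR-130b 2.94, 3.01, 2.77 and 2.89, miR-301a 1.29, 1.37, 1.13 and 0.87, and miR-301b 1.32, 1.39, 1.15 and 1.07. The other 16 of 20 alternatives moved each by less than the spread between arrays. Those named above as unable to move the heart estimate could not move these either.

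Assays called between heart graft groups numbered 77, and 34 with MammU6, 42 with no filter, 2 with run day as a fixed block, 46 with the replicate block and 42 to 81 with 1 array left out (43 without allogeneic pool 1, 42 without syngeneic pool 2 and 45 without syngeneic pool 3). In GIL the 73 calls became 48 with snoRNA202, 31 with snoRNA135 and snoRNA202, 35 with no filter and 39 to 73 with 1 array left out (46, 39 and 43 without syngeneic pools 1, 2 and 3). A fixed run day block could not be fitted for GIL, where no day held both groups; run day as a random block, chosen after seeing the data, changed no call of a member in hearts. The causes of these changes were not tested. In GIL 161 to 221 of 375 assays were detected, which limits the assays that could be tested.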
